A study of Gallus gallus with 30 samples.

Results

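In chicken breast muscle, 11 genes had a signal that was lower at each successive age from 1 d to 8 w posthatch in both broilers and layers, and lower at 8 w than at 1 d by at least 1 on the log2 scale, that is by a factor of 2 or more. They are 11 of 13009 genes measured by probe sets with 1 gene symbol, represented by 15 of 27168 such probe sets, and were IGF2BP3, MATN2, CPM, EDIL3, SPON2, MCF2, LAMB1, OSBPL1A, WLS, CDH8 and PPIA. The rule averaged the 3 arrays of each RNA pool, asked for a lower pool mean at each of the 4 steps (1 d to 2 w, 2 w to 4 w, 4 w to 6 w and 6 w to 8 w) in both lines, and left out symbols that start with COL, MCM or CCN as well as DKK3 and MYBPC3. The members were thus chosen by their pool means at the 5 ages, and the changes with age below are a description and carry no test.

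The samples were Pectoralis major, the breast muscle, of male Arbor Acres (AA) broilers, bred for meat, and of male White Leghorn layers, bred for egg production, each at 1 d and at 2, 4, 6 and 8 w. Birds of both lines were housed alike and ate the same commercial layer diet. RNA of 5 randomly chosen males of a line was combined into 1 pool at each age, and each of the 10 pools was measured on 3 Affymetrix Chicken Genome Arrays. An array SD below is therefore the technical error of 1 pool, and the birds in a pool cannot be told apart.

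Breast muscle of the young chick grows as its fibres thicken and lengthen, and satellite cells, the resident stem cells of muscle, supply them with nuclei. The matrix between the fibres and the basement membrane around them are laid down and remodelled over the same period. IGF2BP3 binds mRNAs, among them that of the growth factor gene IGF2, and is known as a protein of the fetal type that most adult tissues hold at low levels. MATN2 (matrilin 2), SPON2 (spondin 2), EDIL3 and LAMB1 (the laminin beta 1 chain) are secreted into the matrix, so that 4 of the 11 genes encode matrix proteins. CPM (carboxypeptidase M), CDH8 (cadherin 8) and WLS, which carries Wnt ligands to the cell surface, are membrane proteins. MCF2, OSBPL1A and PPIA (cyclophilin A) act in the cytoplasm.

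A signal that was lower at every step was rare. Of all 38439 probe sets measured, 50 had it in both lines, and 41 of these carried 1 gene symbol. In 22 of the 41 the total change was under 1 in at least 1 line. The 4 probe sets left out by their symbols measured MYBPC3 (2 probe sets), DKK3 and COL5A2. A large total change was common by comparison, since 969 probe sets of 715 genes with 1 symbol were lower by at least 1 at 8 w than at 1 d in both lines, and 950 of these were not lower at every step. Nearly all of the 969 were lower at 2 w than at 1 d (99.5% in broilers and 99.4% in layers), while the later steps were lower in 67.7%, 55.5% and 52.8% of them in broilers and in 65.3%, 48.4% and 62.1% in layers. Of the 969, 19 were lower at all 8 steps, the 15 members and the 4 left out by symbol, beside 112 that were lower at 7 and 380 that were lower at 6. Conversely, 35 probe sets with 1 symbol were higher at every step in both lines.

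IGF2BP3 had the largest decline of the 11 by the mean of both lines, with 1 probe set per gene. Its log2 signal in broilers was 9.20 ± 0.19 at 1 d, 6.99 ± 0.19 at 2 w, 5.87 ± 0.20 at 4 w, 5.35 ± 0.23 at 6 w and 5.28 ± 0.23 at 8 w (SD, n = 3 arrays of 1 pool). In layers it was 9.46 ± 0.04, 7.25 ± 0.32, 6.12 ± 0.09, 5.89 ± 0.09 and 5.38 ± 0.07 at the same ages. The signal was 15.1-fold lower at 8 w than at 1 d in broilers and 16.9-fold lower in layers. It went on declining through 4 w in both lines by similar amounts, by 1.12 in broilers and 1.13 in layers from 2 w to 4 w, and in layers it dropped by 0.51 more from 6 w to 8 w. The arrays of neighbouring ages did not overlap at 7 of its 8 steps. A second probe set of IGF2BP3 also met the rule, with changes of -3.69 in broilers and -3.82 in layers. Its arrays were apart at only 5 of 8 steps. In layers its step from 6 w to 8 w was -0.28, and the arrays overlapped there. Because whole tissue was measured, fewer cells of a kind and less RNA per cell cannot be told apart for this or any other gene.

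MATN2, which encodes an adaptor protein of matrix filaments, had most of its decline before 2 w. In broilers its log2 signal was 9.66 ± 0.12, 6.53 ± 0.18, 6.33 ± 0.24, 5.82 ± 0.07 and 5.78 ± 0.50 at the 5 ages in turn. In layers it was 9.41 ± 0.05, 6.88 ± 0.29, 6.69 ± 0.16, 6.55 ± 0.08 and 6.24 ± 0.20. The change from 1 d to 2 w made up 80.6% of the whole in broilers and 79.8% in layers. At 8 w the signal was 14.7-fold lower than at 1 d in broilers and 8.99-fold lower in layers. The second probe set that met the rule changed by -4.27 in broilers, more than either probe set of IGF2BP3 in that line, and by -3.45 in layers.

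SPON2 encodes a secreted matrix protein, also called mindin, that is known in mammals for binding integrins and microbial surfaces. Its decline was spread over the ages, with 10.04 ± 0.19, 9.16 ± 0.23, 8.71 ± 0.54, 8.09 ± 0.05 and 7.97 ± 0.11 in broilers at the 5 ages and 10.65 ± 0.08, 9.87 ± 0.10, 9.19 ± 0.06, 8.67 ± 0.05 and 8.21 ± 0.08 in layers. In layers the 4 steps were -0.78, -0.68, -0.51 and -0.46, and the arrays of neighbouring ages did not overlap at any of them. In broilers the steps were -0.88, -0.45, -0.62 and -0.12, and the arrays were apart only at the first. The arrays of the broiler 4 w pool ranged from 8.10 to 9.10. Only 42.3% of the decline in broilers and 32.0% in layers came before 2 w. SPON2 was 4.20-fold lower at 8 w than at 1 d in broilers and 5.41-fold lower in layers. At the second SPON2 probe set that met the rule, 36.8% of the decline in broilers and 45.8% in layers came before 2 w. Its broiler arrays were apart at every step but that from 2 w to 4 w.

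EDIL3, whose product binds integrins on endothelial and other cells, was 8.80-fold lower at 8 w than at 1 d in broilers and 4.44-fold lower in layers. Its pool means were 7.51, 5.62, 4.97, 4.50 and 4.37 in broilers and 6.94, 5.91, 5.11, 5.05 and 4.78 in layers, with array SDs of up to 0.45. The broiler pool was the higher at 1 d and the lower at each later age. LAMB1, a chain of the laminins of the basement membrane, had pool means of 6.46, 5.75, 5.50, 5.03 and 4.96 in broilers and 6.70, 5.50, 5.46, 4.87 and 4.82 in layers. It was 2.83-fold lower at 8 w than at 1 d in broilers and 3.68-fold lower in layers. Its layer pool at 6 w had an array SD of 0.81, with the lowest array at 3.95 and the highest at 5.46, a wider range than the whole decline of 0.68 in that line after 2 w. Only the first step of LAMB1 was free of overlap between arrays in either line.

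CPM encodes an enzyme on the cell surface that removes basic residues from the ends of peptides. Its pool means were 9.19, 6.88, 6.81, 6.78 and 6.39 in broilers and 8.88, 7.71, 7.08, 6.87 and 6.30 in layers. The lines differed by 0.31 at 1 d and by 0.08 at 8 w, with broilers the higher at both, and took different courses between. In broilers 82.2% of the decline came before 2 w, the largest share of the 11 genes in that line, and in layers 45.6%. At 2 w the broiler pool lay below the layer pool by 0.82, with 6.88 ± 0.23 in broilers and 7.71 ± 0.24 in layers (SD, n = 3 arrays), and the arrays did not overlap. The share of all probe sets with arrays apart at 2 w is not given here, so this is not read as a trait of CPM. Averaged over the ages, the line difference of CPM was -0.16 (adjusted p = 0.716 by limma).

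CDH8, a cell adhesion receptor best known from the nervous system, had pool means of 8.89, 8.02, 7.71, 7.49 and 7.38 in broilers and 8.72, 8.10, 7.86, 7.75 and 7.59 in layers. It was 2.86-fold lower at 8 w than at 1 d in broilers and 2.19-fold lower in layers. WLS had pool means of 8.30, 7.36, 7.11, 7.06 and 6.72 in broilers and 8.16, 7.18, 7.18, 7.13 and 6.95 in layers. Its step from 2 w to 4 w in layers was -0.0033, the smallest of all 88 steps, beside array SDs of 0.22 at 4 w and 0.23 at 2 w. WLS met the rule in layers by that margin.

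MCF2 encodes a signalling protein of the cytoplasm. Its pool means were 7.66, 7.22, 6.15, 5.77 and 5.64 in broilers and 8.58, 6.57, 6.39, 6.18 and 6.12 in layers. Here the layers had most of the decline before 2 w (81.8%) and the broilers had 21.5% of it by then, the opposite of CPM. The largest step of MCF2 in broilers was that from 2 w to 4 w, at -1.08. The second probe set of MCF2 that met the rule had 39.8% of its decline before 2 w in broilers and 70.0% in layers.

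OSBPL1A, a sterol-binding protein of endosomes, had pool means of 8.58, 7.48, 7.32, 7.16 and 7.06 in broilers and 8.65, 7.54, 7.08, 7.00 and 6.94 in layers, and was 2.88-fold lower at 8 w than at 1 d in broilers and 3.27-fold lower in layers. PPIA, a prolyl isomerase that is often used as a reference gene in PCR, had the smallest decline of the 11. Its pool means were 10.77, 10.33, 10.21, 9.83 and 9.60 in broilers and 10.62, 9.97, 9.85, 9.84 and 9.56 in layers. At 8 w PPIA was 2.26-fold lower than at 1 d in broilers and 2.08-fold lower in layers.

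**Figure D1:**
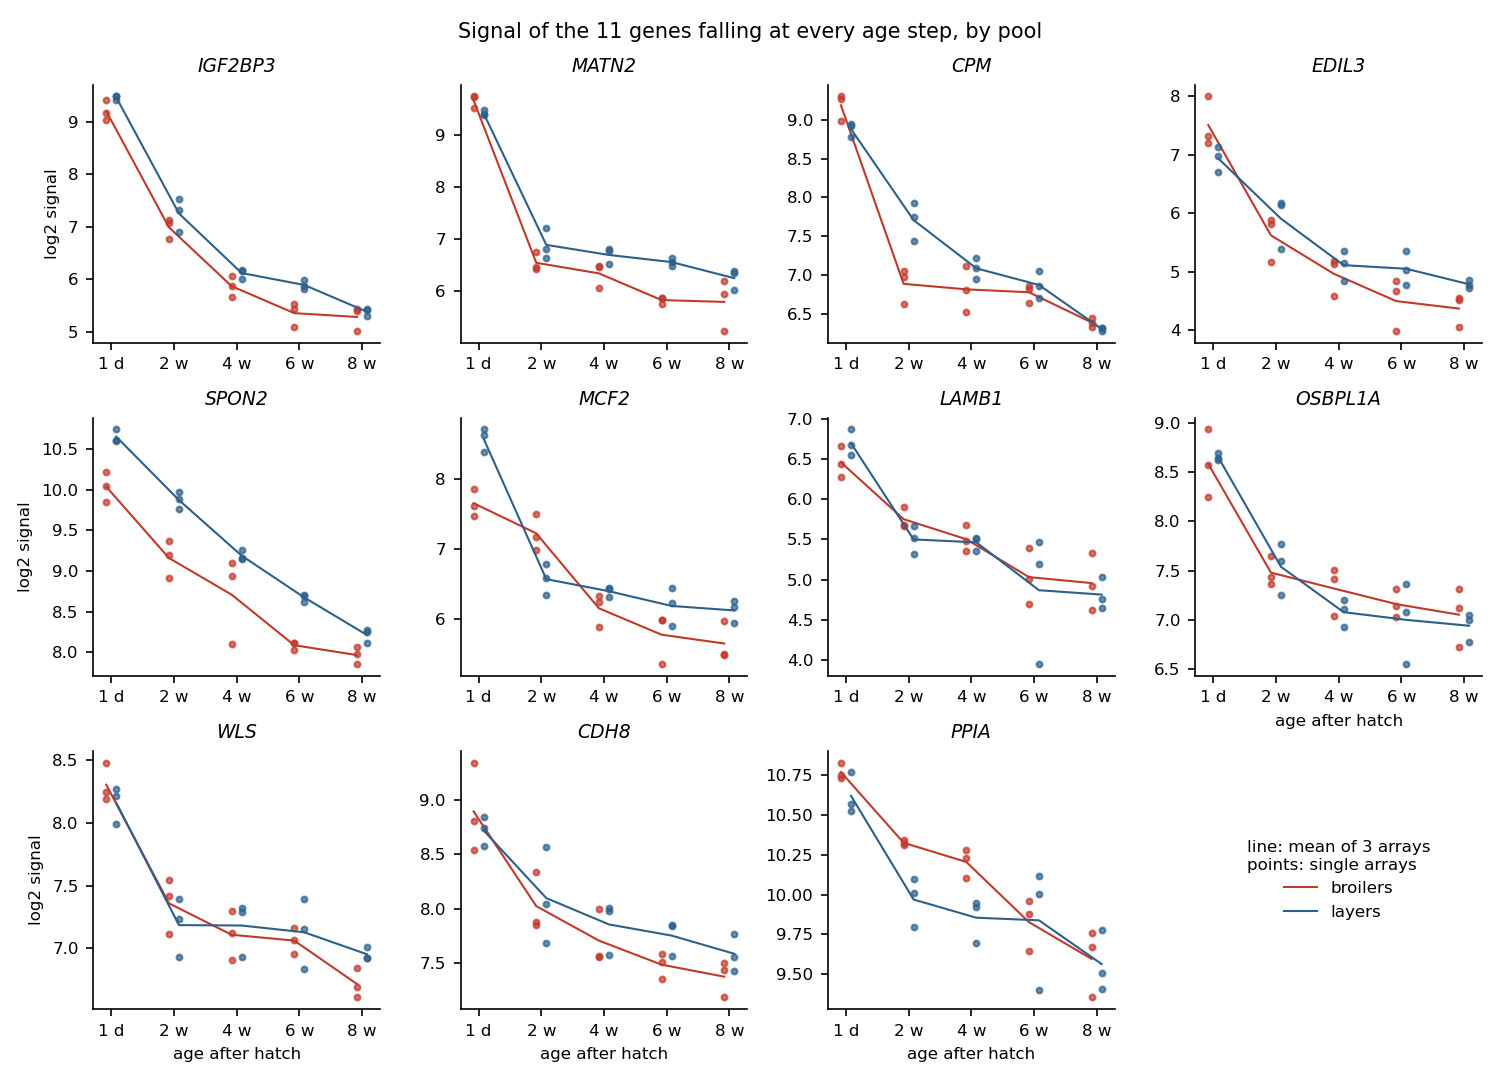
Log2 signal (vertical axis, scaled to each gene) of the 11 genes at 5 ages posthatch (horizontal axis), with broilers in red and layers in blue. Points are single arrays, 3 of 1 RNA pool at each age and line, and lines join the pool means. All 22 lines go down, most of them most steeply before 2 w, and CPM and MCF2 take different courses in the lines between 1 d and 4 w.

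The members nearest the threshold of 1 were PPIA, CDH8 and WLS, whose smaller decline of the 2 lines was 1.06, 1.13 and 1.20. The nearest probe sets outside it, which were also lower at every step, measured DMD (-0.88 in broilers and -0.997 in layers), PDXK (-0.84 and -0.94) and DMD again (-0.84 and -1.09). DMD encodes dystrophin, which links the cytoskeleton of the fibre to the matrix, and PDXK encodes pyridoxal kinase. Over the 11 genes the change from 1 d to 8 w ranged between -3.92 and -1.18 in broilers, with a median of -2.02, and between -4.08 and -1.06 in layers, with a median of -2.15. For 11 of 11 genes in each line the 3 arrays of 8 w all lay below those of 1 d. The same was true of 21% of all probe sets with 1 symbol in broilers and 22.9% in layers. These shares are given for scale only, since the rule asked the 11 genes for a decline of at least 1 between these ages. Over all probe sets with 1 symbol the median change was 0.01 in broilers and 0.02 in layers.

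Most of the decline came early. The step from 1 d to 2 w held a median of 57.3% of it in broilers (21.5% to 82.2%) and 61.7% in layers (32.0% to 81.8%). At 21 of the 22 steps from 1 d to 2 w the 3 arrays of the later pool all lay below those of the earlier one, the exception being MCF2 in broilers. Later this held for 8 of 22 steps from 2 w to 4 w, 5 of 22 from 4 w to 6 w and 6 of 22 from 6 w to 8 w. Over all probe sets with 1 symbol, the arrays were apart in this direction at 20.6%, 8%, 9.57% and 10.7% of these steps in turn, values that are given for scale only, since the rule used the same steps. In all, the arrays were apart at 40 of 88 steps (12.2% of steps over all probe sets), and at 19 of the 66 after 2 w. In the other 47 of these 66 the arrays of the neighbouring pools overlapped. By another measure, the change exceeded the combined array SD of both pools (the root of their summed variances) at 24 of the 66. The share over all probe sets is not given for this measure.

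Over the whole span from 2 w to 8 w the arrays were apart more often than at its single steps. The rule had fixed a lower mean at 8 w than at 2 w for every member in advance. The arrays of 8 w all lay below those of 2 w for 11 of 11 genes in broilers, with changes between -1.71 and -0.43 and a median of -0.75, and for 9 of 11 genes in layers, with changes between -1.87 and -0.23 and a median of -0.64. The same held for 10.2% of all probe sets with 1 symbol in broilers and 10.4% in layers. These values too are for scale only, since the rule used the steps of this span. The exceptions in layers were WLS, with -0.23, and CDH8, with -0.51. IGF2BP3 had the largest change after 2 w in both lines, and those of SPON2 and EDIL3 also exceeded 1 in both. CPM and MCF2 did so in only 1 line each, CPM in layers (-1.40) and MCF2 in broilers (-1.58).

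**Figure D2:**
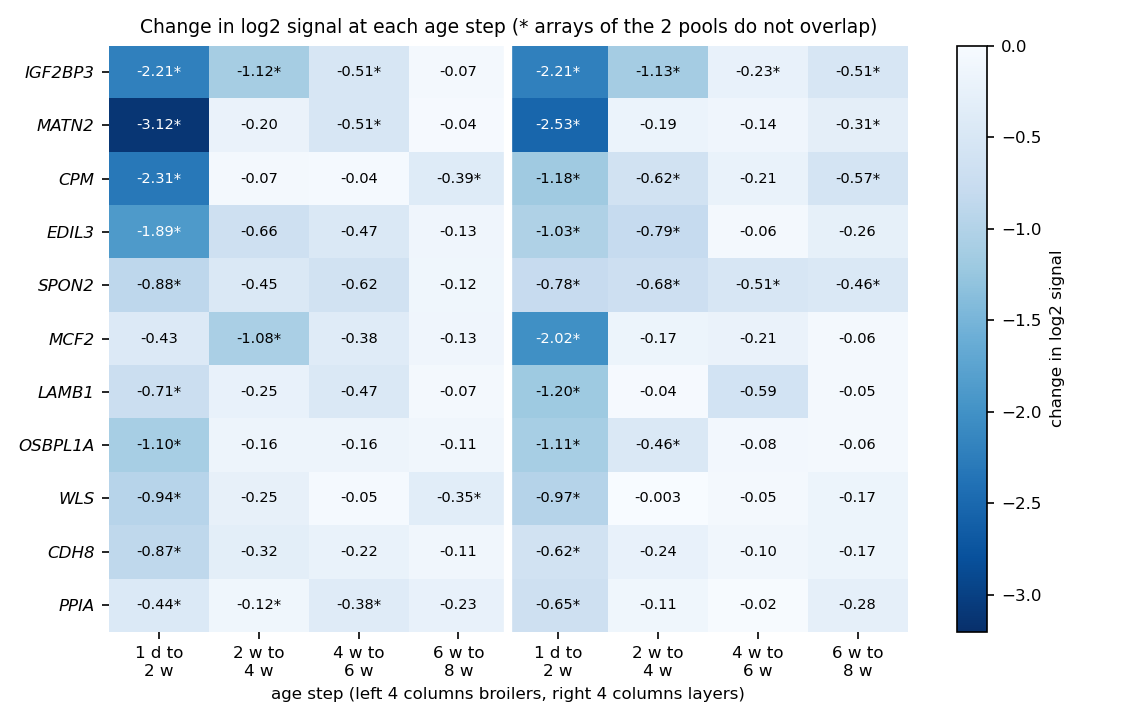
Change in log2 signal from each age to the next for the 11 genes (rows, largest decline at the top), with the 4 steps of broilers on the left and those of layers on the right. Darker blue is a larger decline, and a star marks the 40 of 88 steps at which all 3 arrays of the later pool lay below those of the earlier one. The stars crowd into the step from 1 d to 2 w, at 21 of 22.

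The difference between the lines was not used by the rule and was tested. Averaged over the 5 ages, 1 of the 11 genes, SPON2, passed an adjusted p of 0.05 for the difference of the lines, where 1.35% of all 38439 probe sets did (0.723% lower in broilers and 0.63% higher). SPON2 was lower in broilers, with a mean of 8.79 in broilers and 9.32 in layers, a difference of -0.53 ± 0.09 or 1.44-fold (SE, n = 5 pools per line, adjusted p = 0.0294 by limma with Benjamini-Hochberg adjustment over all probe sets). Broilers were lower at each age, by 0.61, 0.71, 0.48, 0.59 and 0.25 from 1 d to 8 w in the order of age, and at all 5 ages every broiler array lay below every layer array, as was so for 0.291% of probe sets with 1 symbol. Its other probe set differed by -0.34 (adjusted p = 0.180 by limma), being 0.08 higher in broilers at 4 w and lower at the other ages. The call was not stable. The adjusted p of SPON2 was 0.122 without the pools of 2 w, 0.0929 without those of 4 w, 0.0801 without those of 6 w and 0.0860 without the first array of every pool. The difference itself stayed between -0.60 and -0.44 in every alternative run. Without the pools of 2 w, 4 w or 6 w fewer of all probe sets passed, 128, 168 and 170 in turn against 520.

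The other 10 genes did not pass. IGF2BP3 was lower in broilers at 5 of 5 ages, by 0.28 ± 0.09 on average (SE, adjusted p = 0.180 by limma), with means of 6.54 in broilers and 6.82 in layers. MATN2 averaged 6.83 in broilers and 7.15 in layers, a difference of -0.33 ± 0.13 (adjusted p = 0.289), and was higher in broilers at 1 d by 0.25 and lower at each later age. MCF2 differed by -0.28 ± 0.19 (adjusted p = 0.573), with -0.93 at 1 d and 0.66 at 2 w. PPIA had the largest difference in the other direction, 0.18 ± 0.08 (adjusted p = 0.399), with means of 10.15 in broilers and 9.97 in layers. The remaining 6 genes differed by between -0.17 (EDIL3) and 0.08 (OSBPL1A), with adjusted p-values of 0.697 to 0.975. In all, 8 of the 11 genes had the lower mean in broilers, and the median difference was -0.16. The same share over all probe sets is not given here, so this count is not read as a trait of the 11 genes. An unadjusted p under 0.05 by limma was reached by 3 of the 11, as by 14.3% of all probe sets.

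**Figure D3:**
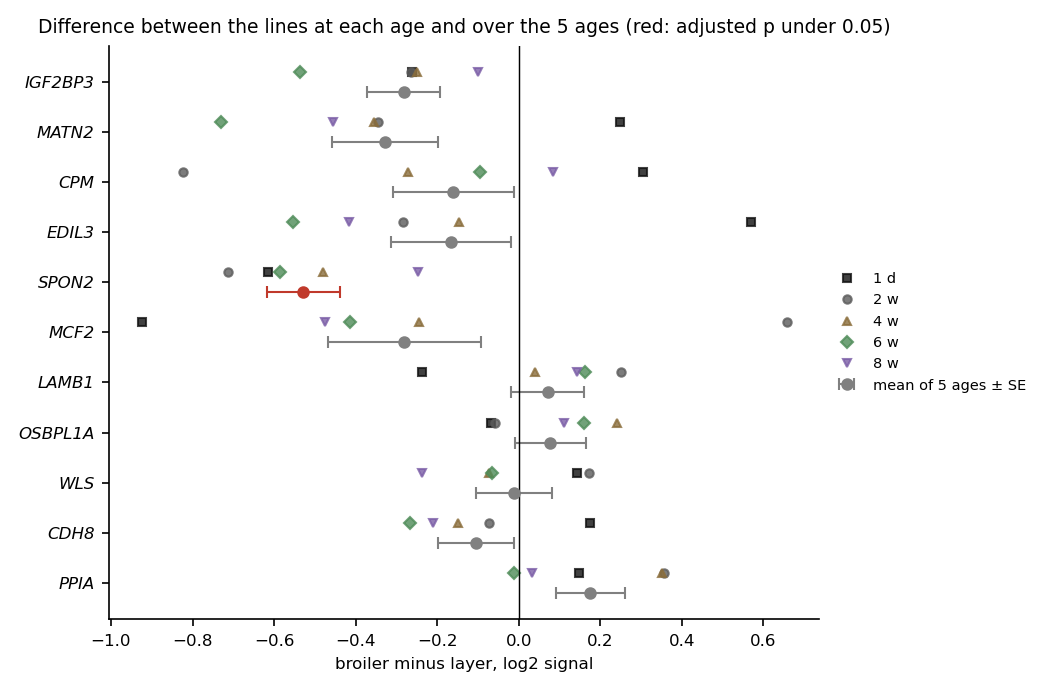
Broiler minus layer log2 signal (horizontal axis) of the 11 genes, at each of the 5 ages (small symbols, 1 pool of each line) and as the mean of the 5 ages with its SE from limma (large circles with bars, n = 5 pools per line). SPON2, in red, is the gene with an adjusted p under 0.05, and its 5 ages all lie left of 0, as do those of IGF2BP3, while MCF2 spans -0.93 at 1 d to 0.66 at 2 w.

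The size of the decline differed between the lines in both directions. It was larger in broilers for 6 genes and in layers for 5, and the difference is given with no test, since the rule used both declines. EDIL3 changed by 0.99 more in broilers (-3.14 in broilers and -2.15 in layers) and MATN2 by 0.70 more (-3.87 in broilers and -3.17 in layers), with CDH8 next (-1.52 in broilers and -1.13 in layers). The excess in layers was largest for MCF2 (-2.02 in broilers and -2.46 in layers), LAMB1 (by 0.38) and SPON2 (-2.07 and -2.44). These values are for 1 probe set per gene, and other probe sets can differ. At the brighter LAMB1 probe set, which missed the rule, the decline was larger in broilers (-1.46 in broilers and -1.34 in layers). The second EDIL3 probe set had closer declines (-1.496 in broilers and -1.32 in layers).

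Of the 11 genes, 8 had over 1 probe set, and these measure the same RNA pools. Whether they cover separate stretches of the transcripts was not examined. For IGF2BP3, MATN2, SPON2 and MCF2, 2 probe sets each met the rule. A further 11 probe sets of 6 genes did not, and 7 of these were lower at 8 w by at least 1 in both lines all the same. Those of MATN2 changed by -3.53 and -4.22 in broilers and by -3.29 and -3.32 in layers. Both missed the rule from 6 w to 8 w, being higher by 0.08 and 0.13 in broilers, and the latter also by 0.15 in layers. The third probe set of IGF2BP3 changed by -2.26 in broilers and -1.85 in layers, and was higher by 0.17 from 4 w to 6 w in broilers. The second probe set of LAMB1 was far brighter than the one that met the rule, with a mean of 10.01 over all arrays beside 5.51. This brighter probe set changed by -1.46 in broilers and -1.34 in layers. It missed the rule at a single step, 4 w to 6 w in layers, where it was higher by 0.23. The second of EDIL3 changed by -1.496 in broilers and -1.32 in layers. It was higher from 6 w to 8 w in broilers, by 0.15, and from 2 w to 4 w and 6 w to 8 w in layers, by 0.04 and 0.05. For OSBPL1A, 2 changed by -1.69 and -1.17 in broilers and by -1.54 and -2.12 in layers. The first of these 2 was slightly brighter than the OSBPL1A probe set that met the rule, with a mean of 7.58 beside 7.48. It missed the rule from 6 w to 8 w in layers, where it was higher by 0.06.

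The other 4 did not share the decline. OSBPL1A had a probe set that was higher at 8 w, by 0.51 in broilers and 0.32 in layers. All 3 other probe sets of CDH8 were flat, with changes of -0.08, -0.19 and 0.10 in broilers and -0.11, 0.16 and -0.16 in layers, and with pool means that ranged only between 1.91 and 2.11, 2.33 and 2.91, and 3.30 and 3.65. These pool means all lay below the median signal of 4.13, where a lack of change says little. The CDH8 probe set that met the rule is of a kind (suffix x_at) whose probes can match other transcripts, so the decline assigned to CDH8 rests on 1 of 4 probe sets and its target is uncertain. Suffix s_at, which marks probes shared by several transcripts, is carried by probe sets of IGF2BP3, MATN2, CPM, MCF2 and WLS. CPM, PPIA and WLS had no other probe set with which to compare.

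Relatives of the 11 genes differed among themselves. Of 79 other genes of the same families, 35 were lower at 8 w than at 1 d in both lines and 6 by at least 1, beside 36.2% and 4.5% of all 13009 genes. IGF2BP2, a relative of IGF2BP3 that also binds mRNAs, changed by -2.54 in broilers and -2.47 in layers, with pool means of 8.20, 5.56, 5.44, 5.54 and 5.66 in broilers and 7.96, 5.95, 5.70, 5.63 and 5.49 in layers. Its broiler pool means stayed between 5.44 and 5.66 after 1 d, while its layer pool means were lower at each successive age. The continued decline of IGF2BP3 was fixed by the rule, so their courses are not compared. IGF2BP1 had a mean of 2.70 and changes of 0.02 in broilers and -0.34 in layers. Of the 10 other laminin chains 7 were lower in both lines, among them LAMA2, the alpha chain of muscle basement membrane (-1.67 in broilers and -1.76 in layers), LAMB2 (-0.91 and -1.45) and LAMC1 (-0.89 and -0.92).

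The other families were mixed. Many of their genes, among them SPON1 (mean 3.28 over all arrays) and most Wnt ligands, had a mean below the median signal of 4.13. A direction says little at such levels. None of the 3 other matrilins was lower in both lines, but their means were also low, 4.16 for MATN1, 3.39 for MATN3 and 4.05 for MATN4. MATN3, a matrilin of cartilage, changed by 0.27 in broilers and by -3.79 in layers, where its signal at 1 d was 6.76. The cartilage markers as a list averaged 4.31 in broilers and 5.50 in layers at 1 d, and the part of this in the results on matrix genes was not tested. Of 18 Wnt ligands, which WLS carries, 5 were lower in both lines, WNT5A with -1.69 in broilers and -1.57 in layers. Of 18 other cadherins 8 were lower in both lines, with CDH11 at -1.38 in broilers and -1.32 in layers and CDH19, a cadherin of Schwann cells, at -1.69 and -1.40. Of 9 other genes named for carboxypeptidases or their subunits 3 were lower in both lines (CPZ at -1.02 and -1.03), as were 5 of 7 other cyclophilins, PPIB with -0.99 and -0.81. SPON1 changed by -0.71 in broilers and 0.03 in layers, and MFGE8, the relative of EDIL3, by 0.41 in broilers and -0.31 in layers.

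**Figure D4:**
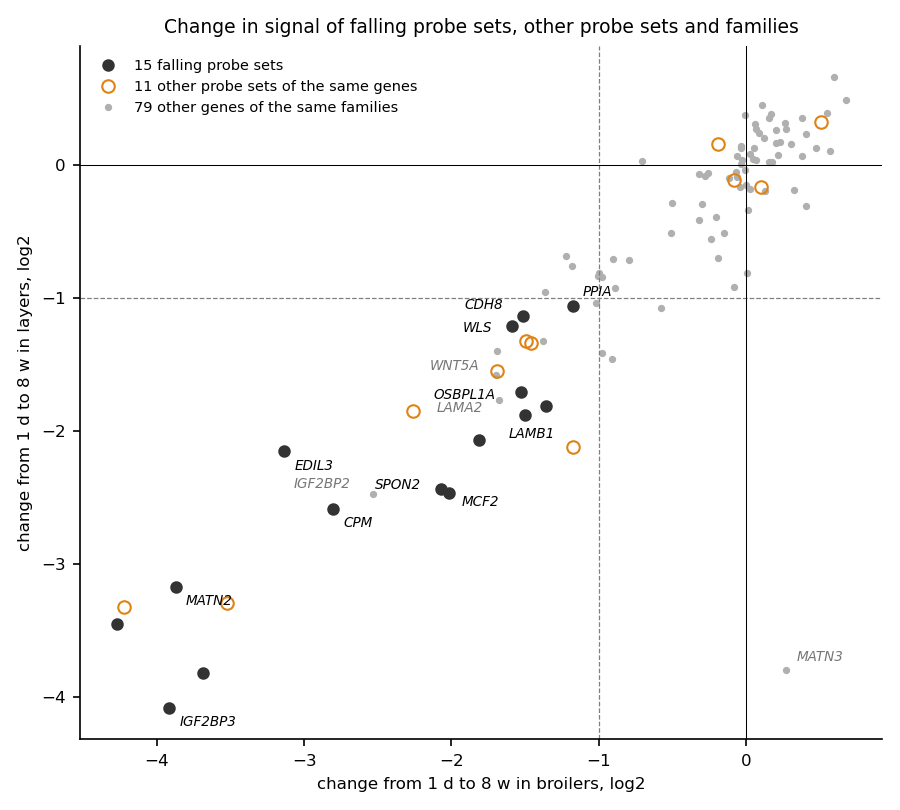
Change in log2 signal from 1 d to 8 w in broilers (horizontal axis) and layers (vertical axis) for the 15 probe sets that met the rule (black), 11 other probe sets of the same genes (orange rings) and 79 other genes of their families (grey). Dashed lines mark -1. Of the 11 rings 7 lie among the black points and 4 near the origin, and IGF2BP2, LAMA2 and WNT5A are among the grey points below -1 in both lines.

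Of the 11 genes, 3 stood in lists of genes grouped by role. Of 69 cell division genes, 65 were lower at 8 w than at 1 d in both lines and 32 by at least 1, with median changes of -1.34 in broilers and -1.06 in layers, but none was lower at every step. Among them TOP2A and MKI67, both markers of dividing cells, were lower by at least 1 in both lines. Of 62 matrix genes other than collagens, 47 were lower in both lines and 18 by at least 1 (medians -0.74 in broilers and -0.89 in layers), and 2 of these, MATN2 and LAMB1, met the rule. ELN, the elastin gene, and FBN2, the fibrillin of developing tissue, were also in the 18. Of 70 genes of growth factor signalling and fetal-type mRNA-binding proteins, 43 were lower in both lines and 12 by at least 1, and IGF2BP3 alone met the rule. IGFBP2, MDK (midkine) and PTN (pleiotrophin) were among the 12.

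In 5 further lists no gene met the rule. These were collagen processing and secretion (38 of 51 lower in both lines), developing muscle fibres (26 of 41), cytoskeleton and adhesion (43 of 74), developmental chromatin and transcription factors (36 of 71) and RNA processing (29 of 52). The 5 genes of developing fibres that were lower by at least 1 were CHRNG, the fetal subunit of the acetylcholine receptor, NCAM1, NES (nestin), MYBPC1 and TNNI1. In the same list 3 genes were higher by at least 1 in both lines, MSTN, the gene of the growth inhibitor myostatin (3.71 in broilers and 3.02 in layers), TNNC1 (2.69 and 3.12) and UNC45B (1.36 and 1.58). Lists were written with earlier results of these data known, so these counts stand beside the 36.2% of all genes that were lower in both lines and the 4.5% lower by at least 1.

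Markers of some other cell types moved with age too, and their part in the changes of the 11 genes was not tested. The counts below stand beside 36.2% of all genes that were lower in both lines and 4.5% that were lower by at least 1. All 9 measured markers of fibroblasts and tendon were lower at 8 w in both lines, 5 by at least 1, and their mean was 8.34 at 8 w and 9.65 at 1 d in broilers and 8.49 and 9.72 in layers. Of 7 markers of nerve and Schwann cells 5 were lower in both lines and 4 by at least 1, MBP by 2.92 in broilers and 1.96 in layers, and their mean was 5.27 at 8 w and 6.52 at 1 d in broilers and 5.43 and 6.44 in layers. Of 5 satellite cell markers 4 were lower in both lines, none by 1. Of 11 immune cell markers none was lower in both lines and 6 were higher by at least 1. Endothelial markers changed little, 2 of 10 being lower in both lines and none by 1 (medians 0.04 in broilers and 0.06 in layers). Of 6 smooth muscle and pericyte markers 3 were lower in both lines, none by 1 (medians 0.01 and -0.20). Of 7 adipocyte markers 2 were lower by at least 1 in both lines and 1 was higher by at least 1. Of 3 red blood cell markers 2 were lower in both lines. The 8 measured markers of fast muscle averaged 12.38 to 12.92 in the 10 pools, as the labelled tissue would have.

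The 11 genes did not lie together in the genome. All 11 symbols were found in the RefSeq gene table (assembly GRCg7b), from which names and gene order were taken and no positions. In 5 pairs of genes both lay on the same chromosome, and the closest pair had 158 protein-coding genes between them.

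Which genes met the rule depended on the arrays that were averaged. Leaving out the first, the second or the third array of every pool gave 14, 13 or 12 genes, and 7 of the 11 met the rule in each of these. The median of the 3 arrays in place of the mean gave 10 genes (8 of the 11), a further quantile normalization 10 (9 of the 11) and centring of each array 13 (all 11). IGF2BP3, MATN2 and SPON2 met the rule by at least 1 probe set each in all 6 of these settings. The other 8 genes missed it in at least 1, LAMB1 in each of the 3 with an array left out, and 19 other genes met it in at least 1. With a decline of at least 0.1 asked of each step, SPON2 and CDH8 were left, and IGF2BP3 and MATN2 missed this through their last step in broilers, -0.07 and -0.04. The total change of each of the 11 genes from 1 d to 8 w moved by less than the combined array SD of both ages in these 6 settings. The exception was the change of IGF2BP3 in layers, which was -3.98 after quantile normalization.

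**Figure D5:**
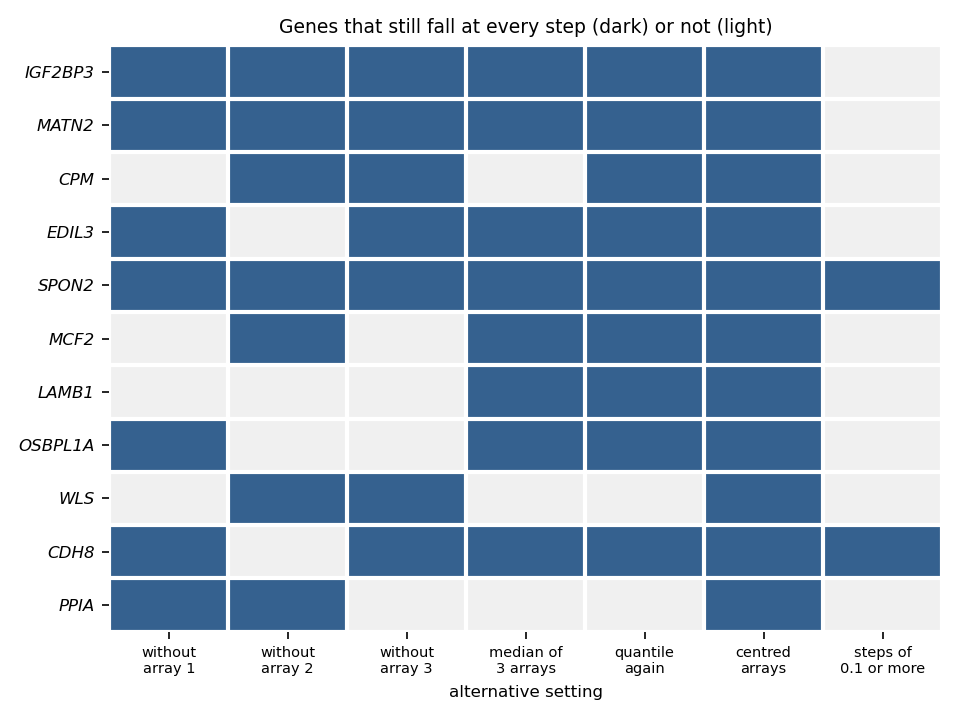
The 11 genes (rows) under 7 other settings of the rule (columns), dark where the gene was still lower at every step and by at least 1 in both lines. IGF2BP3, MATN2 and SPON2 are dark in the first 6 columns, which vary the arrays and their scaling, and SPON2 and CDH8 alone are dark in the last, which asks for 0.1 at each step.

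Between arrays of the same pool R² was 95.4% to 98.7%, taken over all probe sets, whose values are not independent of each other. Array medians ranged between 4.08 and 4.19. Depth does not apply to arrays, and the single pool per line and age limits the precision.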

How the data were processed

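RNA pools of 10 groups (2 lines at 5 ages, 5 males each) were measured on 30 arrays, 3 per pool. Log2 values of 38535 probe sets were deposited by the authors after RMA normalization. Their present calls by MAS5 were not used here. Versions of both tools: not given in the sources used here. Of these probe sets 96 controls were left out. Platform annotation of 2016 named 1 gene for 27168 probe sets, more than 1 for 177 and no gene for 11094. The 3 arrays of a pool were averaged. Broilers and layers were compared with limma 3.58.1 in R 4.3.3 on 10 pool means with terms for age and line and eBayes(trend=TRUE), and p-values were adjusted by Benjamini-Hochberg over 38439 probe sets, with a threshold of 0.05. The scripts were tested on simulated data. The methods of the study state an ANOVA over arrays, which was not repeated as such. As an alternative, limma was run over the 30 arrays with the same adjustment and threshold. The cutoff of the study, an unadjusted p under 0.01 with a 1.5-fold difference, was applied to the fit on pool means.

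A gene with several member probe sets is represented by its brightest (highest mean of the 30 arrays), and so is each gene of a list or family. Genes were named for the largest declines, for each list, for the line difference, near the threshold, and for the largest differences between the lines in decline and in its share before 2 w. Family members, second probe sets and list members named in the text beyond these were chosen after their values were seen. The members, gene lists and families were chosen with earlier results of these data known. Alternatives varied the arrays averaged, the ages, normalization, filters, the age term, the unit of replication and the thresholds. Gene and probe sequences were not used here.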

Additional observations from a re-analysis of the deposited data

How the results depend on the processing

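The number of genes meeting the rule was 11 and ranged between 12 and 14 with 1 array number left out. It was 2 with at least 0.1 asked of each step and 7 with a total decline of at least 1.5, both stricter by construction. The number of the 11 that differed between the lines was 1. It ranged between 0 and 1 with 1 array number left out, the adjusted p of SPON2 from limma being 0.0294 to 0.0860. It was 0 without the pools of 2 w, of 4 w or of 6 w, with adjusted p-values of 0.122, 0.0929 and 0.0801 for SPON2, and 0 with no age term. At an unadjusted p under 0.01 with a 1.5-fold difference it was also 0, SPON2 missing this cutoff at 1.44-fold. Over all probe sets, 1.2% passed the same cutoff. The number was 3 (SPON2, IGF2BP3 and MATN2) with the 30 arrays as independent samples, with the pool as a random block and with the array number as a replicate block. These count technical arrays, and over all probe sets they called 3996, 3404 and 4412, against 520 on pool means. Leaving out an age called 128 to 760, leaving out an array number 294 to 603, and dropping the age term 17, which leaves the age changes in the error. Over the 16 alternatives the adjusted p of SPON2 from limma ranged between 3.99e-06 (replicate block) and 0.9997 (no age term). Arrays with the same number had a median r of 0.14 in their deviations from the pool means, and 23 of 30 arrays were closest to their own number. No chance level was worked out for these values, which are only a hint that a number may mark a shared step. The median r of -0.07 for other numbers is no separate contrast, since the deviations of the 3 arrays of a pool sum to 0. The lowest r was -0.39 and no label ties the numbers together, so they were not taken as pairs.

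Small line differences changed sign. WLS, at -0.01, ranged between -0.0582 and 0.0366 with 1 array number left out, and was 0.0038 without 4 w, 0.0020 without 6 w, 0.0446 without 8 w and 0.0111 after a further quantile normalization. LAMB1, at 0.07, ranged between -0.0664 and 0.213 with 1 array number left out, and CPM, at -0.16, was 0.0057 without 2 w. None of these was near the threshold, and the cause was not tested. The changes from 1 d to 8 w kept their direction in the 11 genes under each of the 6 settings in both lines, and that of IGF2BP3 in layers was -3.98 after quantile normalization. The difference in decline and the other probe sets moved little in each of the 6 settings tried. The number of genes in the role lists that were lower by at least 1 in both lines was 81. It was 68 after a further quantile normalization and 83 without the third array of every pool.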
